A study of Sus scrofa with 22 samples.

Results

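Genes that take up dietary fatty acids and rebuild triglyceride were examined in the jejunal mucosa of Ossabaw pigs. The jejunum is the main site of fat absorption, and this breed is prone to obesity on rich diets. The genes were chosen by name from 10 candidates, and 7 of them had a row of that name among the 24358 genes of every library. These were FABP1, FABP2, SLC27A4, ACSL5, GPAT3, DGAT1 and DGAT2, and all 7 passed the filter on low counts. CD36, MOGAT2 and AGPAT2 were not analysed here.

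In the absorptive enterocyte, pancreatic lipase products enter from the gut lumen as free fatty acids and monoacylglycerol. Fatty acids are bound in the cytosol by small binding proteins, activated to acyl-CoA, and joined to glycerol backbones by a series of acyltransferases in the endoplasmic reticulum. The triglyceride that results is stored for a time in lipid droplets or packed with apolipoprotein B into chylomicrons, which leave through the lymph.

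RNA sequencing of 22 pigs, 1 library per pig, gave 3 groups by the diet label. The group WD_S held 7 pigs on a Western pattern (butter fat, cholesterol and refined carbohydrate, little fibre) with atorvastatin, labelled Atherogenic + Statin. The group HHD_S held 8 pigs on a heart healthy pattern (canola, soybean and corn oils, whole grains, fruit and vegetables) with atorvastatin and fish oil capsules. The group HHD held 7 pigs on the same heart healthy pattern with fish oil (capsules of 1000 mg) and no drug. Both patterns supplied 38% of energy as fat for 6 months, so the kind of fat differed and its share of energy did not. Atorvastatin, an inhibitor of cholesterol synthesis, was dosed at 20 mg per day for 3 months and then 40 mg per day. The series text uses the abbreviation of the WD_S titles for the Western pattern without drug, and the sample labels were followed. A Western group without drug was not analysed here, so diet could be compared only with atorvastatin in both groups. Fish oil is given for both heart healthy groups and not for WD_S. In every comparison with WD_S, diet pattern and fish oil therefore cannot be told apart. The study randomized 16 boars and 16 gilts, and the labels give neither the sex nor the age of each pig.

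Library totals ran from 15316437 to 31564022 counts, and the deposited file names place 13 libraries in a set numbered 3 and 9 in a set numbered 4. Enterocyte markers were present. VIL1, only 1 of the 10 measured, was at 1409 ± 140 in 7 WD_S pigs, 1414 ± 276 in 8 HHD_S pigs and 1400 ± 312 in 7 HHD pigs (CPM, mean ± SD). CPM is the usual depth-scaled unit of counts, here after TMM scaling of the libraries. Libraries HHD_S 3 and HHD_S 8 stood apart in the enterocyte marker score, at -0.82 and -0.80, while the other 20 libraries lay between -0.51 and 0.50. The score is the mean log2 CPM of 10 villus enterocyte markers, each centred over the 22 libraries. The summed CPM of the same markers did not set them apart. By that sum HHD 5 was lowest at 16675, then HHD_S 3 at 17120, HHD_S 8 at 17789.5 and WD_S 1 at 19588. The median score was 0.20 in WD_S, 0.01 in HHD_S and -0.21 in HHD. Of the 10 markers, 9 had a positive log2 fold change in WD_S against HHD_S, 5 in HHD_S against HHD and 8 in WD_S against HHD. None of them passed the edgeR test, and the similar VIL1 means do not stand for the whole list. In a model with a term for them, the 5 pigs with late numbers (2356 or higher) differed from the others at 762 of the 13626 genes tested (edgeR adjusted p under 0.05). None of the 7 fat genes was among them (smallest edgeR adjusted p = 0.367, GPAT3). With so small a share of all genes called, this is not read as a result about the 7. Their log2 fold changes of late-numbered against earlier pigs ran from -0.43 (DGAT2) to 0.25 (FABP2).

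None of the 7 genes differed between the groups past the threshold. FABP1 (chromosome 3, 57850511 to 57854966, Sscrofa11.1, RefSeq gene span) and FABP2 (chromosome 8, 104464342 to 104468059) encode the liver-type and intestinal-type fatty acid binding proteins, which carry fatty acids through the cytosol of the enterocyte. Their counts together made up between 0.448% and 1.48% of a library. FABP1 had a lowest value of 497, a median of 1945 and a highest value of 2606 CPM in WD_S. It had a lowest value of 686, a median of 1830 and a highest value of 4249 CPM in HHD_S, against 1276, 2675 and 3907 CPM in HHD. The groups overlapped, and the lowest values belonged to WD_S 5 and HHD_S 3. For FABP1, the fold of WD_S over HHD was 0.709 (95% confidence interval 0.418 to 1.20, log2 fold change -0.50, SE 0.367, edgeR adjusted p = 0.9997). That of HHD_S over HHD was 0.731 (95% confidence interval 0.439 to 1.22, edgeR adjusted p = 0.9993), and that of WD_S over HHD_S was 0.970 (95% confidence interval 0.575 to 1.64, edgeR adjusted p = 0.9995).

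The log2 fold change of FABP1 in HHD_S against HHD was -1.54 within library set 4 and 0.09 within set 3, and neither passed the edgeR test. In set 4 FABP1 ran from 904 to 1228 CPM in HHD_S (n = 3), against 2342 and 3585 CPM in HHD (n = 2). FABP1 and DGAT2 were the 2 of the 7 genes whose groups did not overlap there, which was so for 12.5% of all genes between these 3 and 2 libraries. In set 3 FABP1 ran from 686 to 4249 CPM in HHD_S (n = 5) and from 1276 to 3907 CPM in HHD (n = 5). Whether the sets differ in this was not tested. Without the 5 late-numbered pigs the log2 fold change of FABP1 was -0.80 in HHD_S against HHD (edgeR adjusted p = 0.856) and -0.83 in WD_S against HHD (edgeR adjusted p = 0.682), and with all pigs but HHD 4 it was -0.24 in HHD_S against HHD and -0.22 in WD_S against HHD. FABP2 averaged 6679 ± 2277 in 7 WD_S pigs, 7650 ± 3424 in 8 HHD_S pigs and 6828 ± 2383 in 7 HHD pigs (CPM, mean ± SD), and its extremes were WD_S 6 at 3380 CPM and HHD_S 4 at 13116 CPM. Its fold was 0.882 in WD_S over HHD_S (95% confidence interval 0.584 to 1.33) and 1.13 in HHD_S over HHD (95% confidence interval 0.746 to 1.70).

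SLC27A4 and ACSL5 trap fatty acids in the cell by coupling them to coenzyme A. SLC27A4 (chromosome 1, 268773792 to 268788208) encodes fatty acid transport protein 4, which also has acyl-CoA synthetase activity. It stood between 410 and 696 CPM in WD_S with a median of 501, between 197 and 761 CPM in HHD_S with a median of 472, and between 295 and 715 CPM in HHD with a median of 517. Both values under 250 CPM belonged to HHD_S 3 and HHD_S 8, the libraries lowest in the enterocyte marker score. The fold of SLC27A4 in WD_S over HHD_S was 1.17 (95% confidence interval 0.814 to 1.67, edgeR adjusted p = 0.9995), and its log2 fold change was 0.22, against -0.03 without those libraries. ACSL5 (chromosome 14, 122777135 to 122828054), a long-chain acyl-CoA synthetase, averaged 420 ± 81.5 in 7 WD_S pigs, 429 ± 99.9 in 8 HHD_S pigs and 456 ± 174 in 7 HHD pigs (CPM, mean ± SD). Its highest values were 764 and 623 CPM, in HHD 1 and HHD 4. Its fold was 1.00 in WD_S over HHD_S, with a 95% confidence interval of 0.756 to 1.33.

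**Figure D1:**
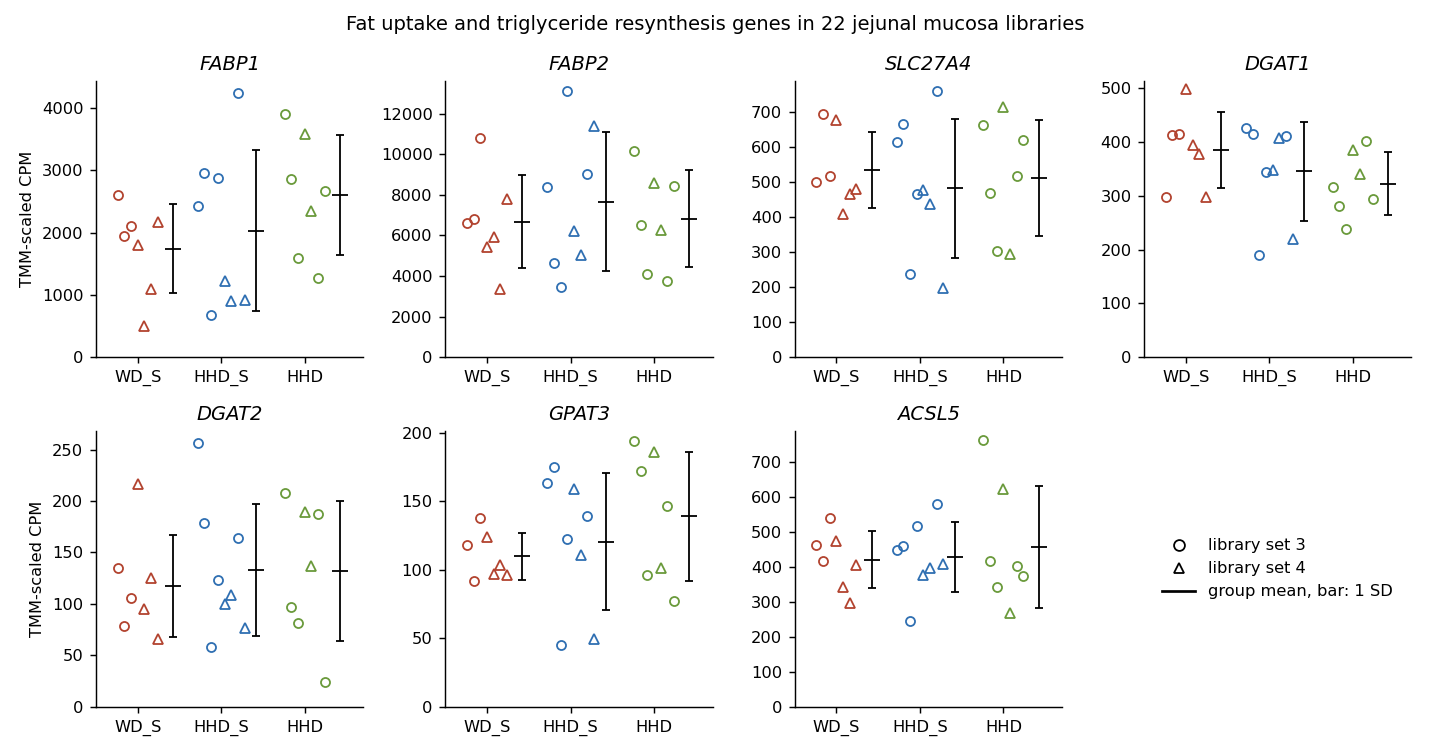
TMM-scaled CPM (linear axis from 0) of each of the 7 genes in each library, by group, with circles for library set 3, triangles for library set 4, and the group mean with 1 SD at the right of each group. All groups overlap for all 7 genes, and in HHD_S the lowest SLC27A4, DGAT1 and GPAT3 values belong to HHD_S 3 and HHD_S 8.

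The acyltransferases build the glycerolipid. GPAT3 (chromosome 8, 134912493 to 135002140) acylates glycerol phosphate, the entry to the pathway that does not start from monoacylglycerol. GPAT3 had a lowest value of 91.9, a median of 104 and a highest value of 138 CPM in WD_S. It had a lowest value of 45.5, a median of 131 and a highest value of 175 CPM in HHD_S, against 77.5, 147 and 194 CPM in HHD. The spread was narrower in WD_S, with a coefficient of variation of 15.7%, compared with 41.4% in HHD_S and 33.9% in HHD, and this difference in spread was not tested. The fold of GPAT3 in WD_S over HHD was 0.808 (95% confidence interval 0.546 to 1.20, edgeR adjusted p = 0.9997).

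DGAT1 and DGAT2, which belong to unrelated protein families, both add the last acyl chain that turns diacylglycerol into triglyceride. DGAT1 (chromosome 4, 452890 to 463665) averaged 385 ± 70.5 in 7 WD_S pigs, 345 ± 92.4 in 8 HHD_S pigs and 322 ± 57.9 in 7 HHD pigs (CPM, mean ± SD). DGAT1 was thus highest on average in WD_S and lowest in HHD, and neighbours in this order differed by less than their SDs. The fold of DGAT1 was 1.11 in WD_S over HHD_S (95% confidence interval 0.863 to 1.42, edgeR adjusted p = 0.9995) and 1.18 in WD_S over HHD (95% confidence interval 0.914 to 1.53, edgeR adjusted p = 0.9997). These were the narrowest intervals of the 7 genes in those comparisons. DGAT1 in WD_S over HHD_S had the opposite sign without HHD_S 3 and HHD_S 8 (log2 fold change -0.04, against 0.15 with them).

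DGAT2 (chromosome 9, 10032163 to 10066082) varied far more between pigs. It ran from 66.4 to 216 CPM in WD_S with a median of 106, from 58.7 to 257 CPM in HHD_S with a median of 116, and from 24.4 to 207 CPM in HHD with a median of 137. The value of 24.4 CPM came from HHD 7 and the value of 257 CPM from HHD_S 1, and all groups overlapped. The fold of DGAT2 in WD_S over HHD_S was 0.888 (95% confidence interval 0.510 to 1.55, edgeR adjusted p = 0.9995).

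**Figure D2:**
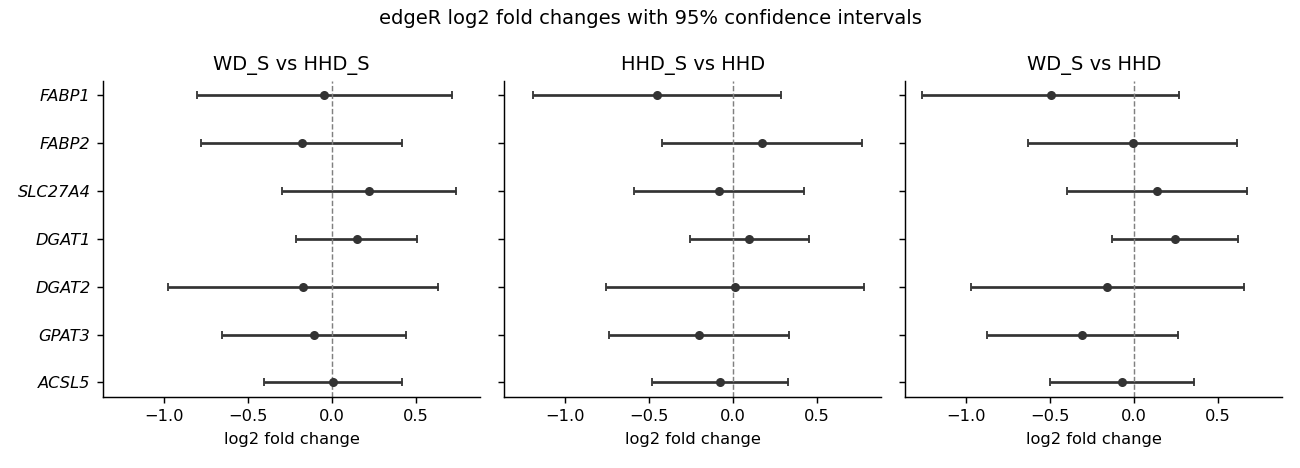
edgeR log2 fold changes (points) with 95% confidence intervals (bars) of the 7 genes in WD_S against HHD_S, HHD_S against HHD and WD_S against HHD. Every interval includes 0, and in each comparison the widest belongs to DGAT2 and the narrowest to DGAT1.

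Over all 13626 genes tested, 0% passed an edgeR adjusted p of 0.05 in WD_S against HHD_S, 0% in HHD_S against HHD and 0.00734% (1 gene, ABCG1) in WD_S against HHD, and the 7 genes contributed none of these. The test of any difference over the 3 labels together called 0.00734% of genes and none of the 7, and 2.13% of all genes had an unadjusted p under 0.05 in it, again none of the 7 (edgeR adjusted p = 0.9999 for each). At an unadjusted edgeR p under 0.05 the 7 genes gave 0 in each comparison, where 2.92% of all genes passed in WD_S against HHD_S, 1.81% in HHD_S against HHD and 3.41% in WD_S against HHD. DESeq2 and limma also called 0 of the 7 genes in each comparison. No gene of the 7 had groups that did not overlap, which 0.0147%, 0.0147% and 0.0661% of all genes had in these comparisons. Of the 7 genes, 3 had a positive log2 fold change in WD_S against HHD_S, 3 in HHD_S against HHD and 2 in WD_S against HHD, beside 47.1%, 52.6% and 49% of all genes. The median log2 fold change of the 7 genes was -0.04, -0.08 and -0.07, and that of all genes tested was -0.01, 0.0088 and -0.0041. WD_S against HHD shares its libraries with both other comparisons and differs from them in having diet, with its fish oil, and drug change at once.

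The ratio of FABP1 to FABP2 within a library does not depend on how libraries are scaled. Gene lengths were not corrected for, so its differences between pigs are read and its size is not. The log2 ratio averaged -2.02 ± 0.75 in WD_S (SD, n = 7), -2.06 ± 0.91 in HHD_S (SD, n = 8) and -1.40 ± 0.16 in HHD (SD, n = 7). The 7 HHD pigs lay close together, between -1.65 and -1.18. In WD_S, 4 of 7 pigs lay below all of HHD, down to -3.58 in WD_S 5, and 3 lay within its range. In HHD_S, 6 of 8 pigs lay below all of HHD, down to -3.62 in HHD_S 8, and the other 2 (HHD_S 2 and HHD_S 7) lay above all of it. The difference in the mean log2 ratio was -0.62 in WD_S against HHD (two-sided exact permutation test, p = 0.0122, adjusted p = 0.0734 over 6 ratio tests) and -0.66 in HHD_S against HHD (exact p = 0.0797, adjusted p = 0.239). In WD_S against HHD_S it was 0.04 (exact p = 0.938). The SD was smaller in HHD than in WD_S and HHD_S, and this difference in spread was not tested. With unequal spread, the permutation does not by itself separate a shift of the mean from a difference in spread.

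None of these differences in the mean log2 ratio passed the adjustment with all libraries. The permutation did not take account of library set, and 4 of 7 WD_S pigs but 2 of 7 HHD pigs were in set 4. In set 4 against set 3 the log2 fold change of FABP1 was -0.62 (edgeR adjusted p = 0.916). With a term for library set and labels permuted only within the sets, the difference was -0.58 in WD_S against HHD (exact p = 0.0750, adjusted p = 0.268) and -0.60 in HHD_S against HHD (exact p = 0.0893, adjusted p = 0.268). Without WD_S 1, that of WD_S against HHD was -0.73 with an exact adjusted p of 0.0105. Without HHD_S 2, that of HHD_S against HHD was -0.86 with an exact adjusted p of 0.0367. The exact adjusted p of WD_S against HHD was then also 0.0367. HHD_S 2 is in neither WD_S nor HHD, so their difference stayed at -0.62 and only the adjustment over the 6 tests changed. Without WD_S 5, the difference of WD_S against HHD was -0.36 (exact adjusted p = 0.122), and without HHD_S 8, that of HHD_S against HHD was -0.43 (exact adjusted p = 0.365). The difference of WD_S against HHD was -0.41 within library set 3 (exact adjusted p = 0.589) and -0.82 within set 4 (exact adjusted p = 0.446), and that of HHD_S against HHD was -0.18 (exact adjusted p = 0.781) and -1.47 (exact adjusted p = 0.400). The log2 ratio of DGAT2 to DGAT1 averaged -1.79 ± 0.49 in WD_S (SD, n = 7), -1.46 ± 0.37 in HHD_S (SD, n = 8) and -1.53 ± 0.96 in HHD (SD, n = 7). Its difference was -0.33 in WD_S against HHD_S (exact permutation test, p = 0.162, adjusted p = 0.324).

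**Figure D3:**
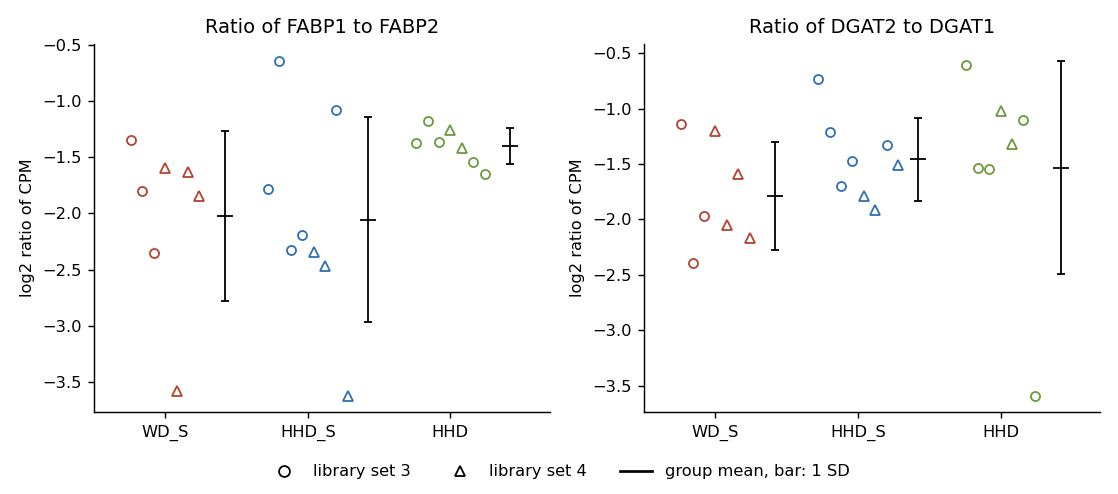
Log2 ratios of CPM within each library, FABP1 to FABP2 on the left and DGAT2 to DGAT1 on the right, by group, with circles for library set 3, triangles for library set 4, and the group mean with 1 SD. For FABP1 to FABP2 the 7 HHD pigs lie between -1.65 and -1.18. Of 7 WD_S pigs 4 lie below this range and 3 within it, and of 8 HHD_S pigs 6 lie below and 2 above it. The lowest are WD_S 5 at -3.58 and HHD_S 8 at -3.62, and no group difference passed the adjustment with all libraries. HHD 7 lies alone at -3.59 for DGAT2 to DGAT1.

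The levels of most of the 7 genes moved together from pig to pig. Over the 22 libraries all 21 pairs had a positive Pearson r of log2 CPM, with a median of 0.58, and 13 pairs passed an adjusted p of 0.05 by permutation (two-sided, 100000 resamples, Benjamini-Hochberg over 21 pairs). By Spearman rho 13 pairs also passed. The smallest r among the 13 was 0.48, a value that 7.65% of the 92827125 pairs of all tested genes reached, and the median r of all those pairs was -0.003. Pairs of genes share depth, scaling and tissue composition, and the 7 genes were chosen for their roles in 1 pathway. SLC27A4 with DGAT1 had the highest r, at 0.74 (rho 0.59, permutation adjusted p = 0.00262). DGAT2 with GPAT3 had an r of 0.69 (rho 0.78, permutation adjusted p = 0.00283), and FABP1 with ACSL5 an r of 0.67 (rho 0.70, permutation adjusted p = 0.00283). FABP2 passed with 2 of the 6 other genes, ACSL5 (r = 0.65, rho 0.66, permutation adjusted p = 0.00366) and FABP1 (r = 0.51, rho 0.55, permutation adjusted p = 0.0293). Its r was 0.20 or less with SLC27A4, DGAT1, DGAT2 and GPAT3, none of which passed, and without the late-numbered pigs it was 0.46 with SLC27A4 and 0.55 with GPAT3. FABP1 with FABP2 had an r of 0.96 in HHD, beside 0.45 in WD_S and 0.45 in HHD_S, and this difference was not tested.

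Leaving out the 2 libraries farthest from the median of the first gene of a pair left 9 pairs past the adjusted threshold, all among the 13. The r of DGAT2 with GPAT3 was then 0.72, that of FABP1 with ACSL5 0.60 and that of SLC27A4 with DGAT1 0.50, the last with a permutation adjusted p of 0.0532. Leaving out HHD_S 3 and HHD_S 8 from every pair left 6 pairs and a median r of 0.41. The median r of the 21 pairs was 0.34 in WD_S, 0.72 in HHD_S and 0.44 in HHD. Within groups, the r of SLC27A4 with DGAT1 was 0.53 in WD_S, 0.93 in HHD_S and 0.43 in HHD, and it was 0.83 in library set 3 and 0.78 in set 4. For DGAT2 with GPAT3 it was 0.63, 0.83 and 0.78 in the same groups, and 0.76 and 0.60 in the sets. The r of FABP2 with DGAT1 was 0.42 in set 3 and -0.67 in set 4.

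**Figure D4:**
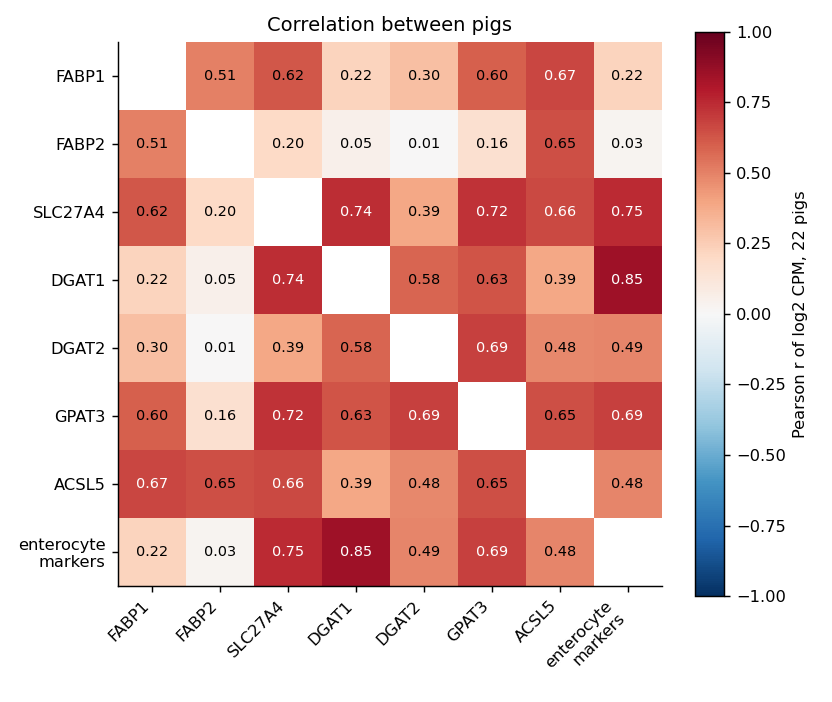
Pearson r of log2 CPM over 22 pigs for each pair of the 7 genes and, in the last row and column, with the villus enterocyte marker score. FABP2 is near 0 with DGAT1, DGAT2 and the marker score (0.05, 0.01 and 0.03), and DGAT1 has the highest r with the score (0.85).

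HHD_S 3 was among the 5 lowest libraries for all 7 genes, and was the lowest of all for ACSL5, DGAT1 and GPAT3. HHD_S 8 was among the 5 lowest for 5 genes and among the 5 highest for FABP2, at 11392 CPM. HHD 1 and HHD 4 were each among the 5 highest for 5 of the 7 genes. In bulk tissue, fewer enterocytes and less RNA per enterocyte cannot be told apart. The genes were set against the enterocyte marker score, which comes from the same bulk RNA and does not separate these either. The score ran from -0.51 to 0.50 in WD_S with a median of 0.20 and from -0.82 to 0.36 in HHD_S with a median of 0.01. In HHD it ran from -0.43 to 0.46 with a median of -0.21.

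DGAT1 followed the score most closely, with an r of 0.85 (rho 0.83, permutation adjusted p over 7 relations = 7e-05, from the smallest p that 100000 resamples can give, 1e-05). SLC27A4 had an r of 0.75 (rho 0.65, permutation adjusted p = 0.000385), GPAT3 0.69 (rho 0.54, permutation adjusted p = 0.00103), DGAT2 0.49 (rho 0.55, permutation adjusted p = 0.0311) and ACSL5 0.48 (rho 0.47, permutation adjusted p = 0.0311). FABP1 (r = 0.22, rho 0.14, permutation adjusted p = 0.370) and FABP2 (r = 0.03, rho -0.01, permutation adjusted p = 0.908) did not pass. The r of FABP2 with the score was 0.28 in library set 3, -0.44 in set 4 and 0.37 without the late-numbered pigs. Whether these values differ was not tested. The share of all genes that follow the score as closely is not given here, so these relations are not read as particular to the 7 genes. Without the 2 libraries farthest from the median score, which were HHD_S 3 and HHD_S 8, DGAT1 alone passed, at 0.71 (permutation adjusted p = 0.00308). SLC27A4 was then at 0.50 (permutation adjusted p = 0.0808), GPAT3 at 0.36, DGAT2 at 0.39 and ACSL5 at 0.38. Within HHD, which holds neither library, the r of these 4 genes lay between 0.56 and 0.67, and within WD_S between 0.02 and 0.39. Without WD_S 4 or without HHD_S 3, each alone, 3 of the 7 relations passed. The r of DGAT1 with the score was 0.74 in WD_S, 0.96 in HHD_S and 0.65 in HHD, and 0.87 and 0.83 in library sets 3 and 4.

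**Figure D5:**
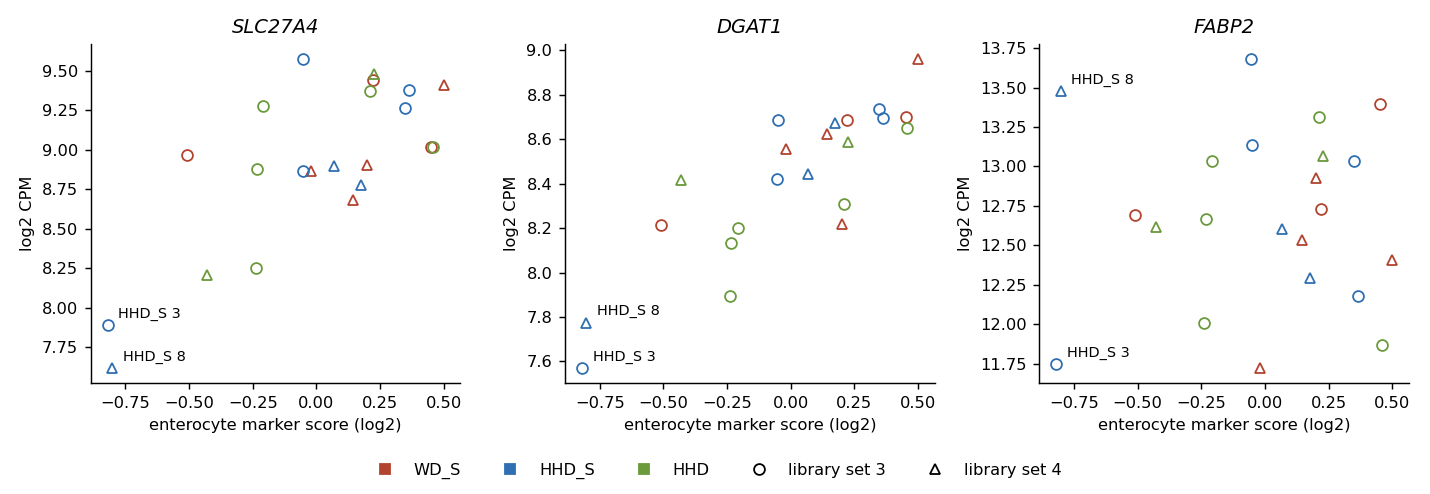
Log2 CPM of SLC27A4, DGAT1 and FABP2 against the villus enterocyte marker score of the same library (mean centred log2 CPM of 10 markers), colours for groups and marks for library sets. HHD_S 3 and HHD_S 8 lie at the left of each panel, below the other libraries for SLC27A4 and DGAT1, while HHD_S 8 is among the highest for FABP2.

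Markers of other cell types were read for the same groups, and none passed the edgeR test in any comparison. Of the 10 enterocyte markers measured, 9 had a positive log2 fold change in WD_S against HHD_S (median 0.16), 5 in HHD_S against HHD (median 0.0035) and 8 in WD_S against HHD (median 0.18), the comparison in which DGAT1 had its largest fold. The 10 macrophage and dendritic cell markers were all positive in WD_S against HHD_S (median 0.23). Of these markers 9 were positive in WD_S against HHD (median 0.19) and 2 in HHD_S against HHD (median -0.06). Their summed level had a range of 783 to 1447 CPM in WD_S, 649 to 1162 CPM in HHD_S and 622 to 1314 CPM in HHD. In HHD_S against HHD, 0 of 10 fibroblast and smooth muscle markers (median -0.27), 0 of 7 goblet cell markers (median -0.38) and 1 of 9 endothelial markers (median -0.25) were positive. In WD_S against HHD_S the positive ones were 9 (median 0.13), 5 (median 0.28) and 8 (median 0.11) in the same order. In WD_S against HHD they were 1 (median -0.11), 2 (median -0.04) and 3 (median -0.05). The fibroblast and smooth muscle markers summed to between 614 and 2637 CPM in HHD_S and 643 and 3099 CPM in HHD, the goblet cell markers to between 1470 and 4067 CPM in HHD_S and 1844 and 4509 CPM in HHD, and the endothelial markers to between 109 and 444 CPM in HHD_S and 180 and 447 CPM in HHD. Of 7 crypt stem and dividing cell markers, 5 were positive in WD_S against HHD_S, 2 in HHD_S against HHD and 2 in WD_S against HHD. Of 10 lymphocyte and plasma cell markers, 6, 6 and 4 were positive in the same order. The part of these cell types in the values of the 7 genes was not tested.

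Adipocytes also express triglyceride synthesis genes, and of their 8 markers 4 passed the filter. The 8 summed to between 200 and 370 CPM in WD_S, 189 and 329 CPM in HHD_S and 245 and 357 CPM in HHD, most of which was CFD, at 159 to 311 CPM in WD_S, 154 to 273 CPM in HHD_S and 187 to 299.5 CPM in HHD. Of the 4 tested, 3 had a negative log2 fold change in each comparison, and FABP4, at -0.68 (SE 0.252) in WD_S against HHD, had an unadjusted edgeR p under 0.05. The adipocyte hormones LEP and ADIPOQ reached no more than 0.0379 and 0.150 CPM in any library. The 4 ileal markers had positive log2 fold changes in WD_S against HHD_S (median 0.35), and 3 of 4 were positive in WD_S against HHD (median 0.37). In HHD_S against HHD, 2 of 4 were positive (median -0.44). Their summed level, mostly GUCA2B, had a range of 223 to 536 CPM in WD_S, 133 to 444 CPM in HHD_S and 205 to 402 CPM in HHD. Of the ileal bile acid genes, FABP6 reached 26.1 CPM in WD_S 1, 0.817 CPM in HHD_S and 1.63 CPM in HHD, while SLC10A2 averaged 1.91 ± 2.73 in 7 WD_S pigs, 1.39 ± 0.508 in 8 HHD_S pigs and 2.96 ± 3.27 in 7 HHD pigs (CPM, mean ± SD). Of 3 duodenal markers tested, 1 was positive in WD_S against HHD_S (median -0.14), 2 in HHD_S against HHD (median 0.19) and 2 in WD_S against HHD (median 0.26). The duodenal markers summed highest in HHD_S 4, HHD_S 8, HHD_S 2 and WD_S 3, at 975, 889, 680 and 645 CPM. FABP2 in these libraries was at 13116, 11392, 4634 and 10791 CPM. The duodenal markers summed lowest in HHD_S 5, HHD 1, HHD_S 6 and WD_S 2, at 271, 320, 324 and 325 CPM. There FABP2 was at 6224, 10166, 5011 and 6798 CPM. The part of adipocyte, ileal and duodenal signal in the 7 genes was not tested.

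Among 94 other genes of fat handling, in 7 lists, 79 were tested and none passed an edgeR adjusted p of 0.05 in any comparison. At an unadjusted edgeR p under 0.05 there were 5 in WD_S against HHD_S (6.33%, beside 2.92% of all genes), 3 in HHD_S against HHD (3.8%, beside 1.81%) and 6 in WD_S against HHD (7.59%, beside 3.41%). Nearest to the genes above is DBI, the acyl-CoA binding protein that holds activated fatty acids. DBI averaged 42.5 ± 22.6 in 7 WD_S pigs, 48.2 ± 9.54 in 8 HHD_S pigs and 71.1 ± 20.3 in 7 HHD pigs (CPM, mean ± SD). Its log2 fold change was -0.75 in WD_S against HHD (SE 0.257, edgeR adjusted p = 0.9997) and -0.56 in HHD_S against HHD (SE 0.244, edgeR adjusted p = 0.9993). In the uptake and activation list 4 of 10 genes tested were positive in WD_S against HHD_S, where the gene with the smallest p was SCARB1, a lipoprotein and lipid receptor, at 0.80 (SE 0.638, edgeR adjusted p = 0.9995).

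Of the lists on acyltransferases and droplets, 13 and 12 genes were tested. LPIN3, one of the phosphatidate phosphatases that make diacylglycerol, had a log2 fold change of -0.25 in WD_S against HHD_S (SE 0.117), and LDAH, a lipid droplet protein, one of -0.26 (SE 0.126). PNPLA2, the lipase that opens stored triglyceride, averaged 68.4 ± 18.8 in 7 WD_S pigs, 61.8 ± 21.6 in 8 HHD_S pigs and 44.3 ± 9.57 in 7 HHD pigs (CPM, mean ± SD). Its log2 fold change was 0.59 in WD_S against HHD (SE 0.228, edgeR adjusted p = 0.9997) and 0.47 in HHD_S against HHD (SE 0.213). ABHD5, the activator of PNPLA2, had -0.66 in HHD_S against HHD (SE 0.296, edgeR adjusted p = 0.9993). These 4 genes were the ones under an unadjusted edgeR p of 0.05 in the 2 lists, and none passed the adjusted test.

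The chylomicron list, with 14 of 14 genes tested, had 9 positive in WD_S against HHD_S, 6 in HHD_S against HHD and 7 in WD_S against HHD, with none at an unadjusted edgeR p under 0.05. APOA4, an apolipoprotein of chylomicrons, had the smallest p of the list in HHD_S against HHD, with a log2 fold change of -0.88 (SE 0.577), APOA1 in WD_S against HHD_S, with 0.38 (SE 0.337), and SAR1A in WD_S against HHD, with -0.19 (SE 0.119). Of 14 regulators of enterocyte fat genes, 11 were positive in WD_S against HHD_S, and 2 had an unadjusted edgeR p under 0.05. These were CDX2, an intestinal identity factor, at 0.33 (SE 0.132), and MLXIPL, a carbohydrate-responsive factor, at 0.57 (SE 0.230). In WD_S against HHD they had 0.46 and 0.58, and NR1H4, the bile acid receptor, had -0.62 (SE 0.297), each again under an unadjusted p of 0.05. CDX2 averaged 272 ± 70.2 in 7 WD_S pigs, 219 ± 22.7 in 8 HHD_S pigs and 204 ± 29.7 in 7 HHD pigs (CPM, mean ± SD).

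Of 10 fat oxidation genes driven by PPARA, a fatty acid sensor of the nucleus, 3 were positive in WD_S against HHD_S. ACADVL, which oxidises very long chains, had -0.23 in WD_S against HHD_S (SE 0.109), and HADHA, of the trifunctional protein, had -0.28 in WD_S against HHD (SE 0.122). In HHD_S against HHD the smallest p belonged to CPT2, of the carnitine shuttle, at -0.36 (SE 0.259). The fat sensing list had 6 genes tested and none at an unadjusted edgeR p under 0.05 in any comparison. In WD_S against HHD_S its smallest p belonged to GIP, an incretin hormone (log2 fold change 0.22, SE 0.182).

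Genes with a symbol and the most similar pattern over the 22 libraries were found by Pearson r of log2 CPM. These values describe the libraries, share their depth and scaling, and carry no test. SLC27A4 was nearest to DLST, a subunit of the 2-oxoglutarate dehydrogenase complex (r = 0.96, rho 0.91). DGAT1 was nearest to TMBIM6 (r = 0.91, rho 0.87). ACSL5 was nearest to SLC9A3, the apical sodium proton exchanger (r = 0.90, rho 0.88), and MTTP, which loads lipid onto apolipoprotein B, was also close (r = 0.85). GPAT3 was nearest to APOA4 (r = 0.88, rho 0.81). FABP1 was nearest to PSMB1, a proteasome subunit (r = 0.82, rho 0.80), and FABP2 to SS18L2 (r = 0.87, rho 0.87).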

How the data were processed

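Each pig has 1 deposited file, and the counts used are its unique exon reads, per the file headers. Per the labels' protocols, RNA of a quality indicator above 8 was sequenced as single reads of 150 bases and processed in CLC software with the annotated pig genome Sscrofa11.1 as reference. The software version and mapping parameters are not stated in the labels. Unique counts leave out reads that match several places equally. Totals were 15316437 to 31564022 counts, and every pair of libraries differed by more than counting noise (smallest reduced chi-square 25.2 over 231 pairs).

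The counts were filtered with filterByExpr (minimum count 10), scaled by TMM and fitted in edgeR 4.0.16 (R 4.3.3) with robust quasi-likelihood, all 3 groups and a term for library set, with 18 residual degrees of freedom. P-values were adjusted by Benjamini-Hochberg over 13626 genes. The SE is the log2 fold change over the square root of F. Log2 CPM have a prior count of 2. Alternatives used DESeq2 1.42.0, limma 3.58.1 and sva 3.50.0, among others. The code was tested on simulated data. The files name 17332 genes, and a table of gene names added 1050. Positions are those of RefSeq by symbol.

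The genes and lists were chosen with earlier results of these data known. Named were all measured genes of the 10 candidates, list genes with an edgeR p under 0.05 or else the smallest p of a list (not all are printed), and the most similar gene per candidate, of which 1 is not reported here. MTTP, FABP4, FABP6, SLC10A2, GUCA2B, CFD, LEP, ADIPOQ and VIL1 were named after their values were seen.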

Additional observations from a re-analysis of the deposited data

Results flagged for a closer look

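The log2 ratio of DGAT2 to DGAT1 was -3.59 in HHD 7, far from the other 6 HHD pigs, of which the lowest was HHD 3 at -1.54. The gap was 0.687 of the range of the group, above the Dixon limit of 0.568 for 7 samples. It was the single such value among 27 groups examined (7 genes and 2 ratios in 3 groups), where chance gives about 1 in 20.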

How the results depend on the processing

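None of the 7 genes passed the adjusted threshold in any comparison under any alternative run, with a smallest adjusted p of 0.523 (limma) and, leaving out 1 library, of 0.890 (edgeR). The 7 genes' log2 fold changes kept their sign in 286 of 315 values under the other alternatives and in 420 of 462 leaving out 1 library. Most were near 0, and the cause of the sign changes was not tested. The biological coefficient of variation common to all genes tested was 25.9%. The coefficient of variation of CPM over the 22 libraries ran from 21.9% for DGAT1 to 49.2% for FABP1. Each of the 7 genes had at least 494 counts in every library. Whether spread between pigs or depth limits these values was not tested. No paired analysis was possible because the labels give no replicate numbers shared between groups.

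In WD_S against HHD_S the opposite sign was found as follows. ACSL5 was at -0.029 without the library set term, -0.046 in set 4, -0.027 scaled by total counts, -0.082 with limma and -0.070 without HHD_S 3 and HHD_S 8, which also gave -0.026 for SLC27A4 and -0.039 for DGAT1. FABP1 was at 0.45 in set 4 and 0.084 with only the 2 groups fitted, DGAT2 at 0.40 in set 4 and FABP2 at 0.078 in set 3. In HHD_S against HHD, set 3 gave 0.090 for FABP1 and 0.082 for SLC27A4, and set 4 gave -0.15 for DGAT1 and -0.77 for DGAT2. DGAT2 was also at -0.035 without the late-numbered pigs, -0.012 with only the 2 groups and -0.00043 with a filter of 1 CPM in 7 libraries, FABP2 at -0.13 without the late-numbered pigs and SLC27A4 at 0.14 with limma. Without HHD_S 3 and HHD_S 8, SLC27A4 was at 0.15, GPAT3 at 0.052 and ACSL5 at 0.010. In WD_S against HHD, FABP2 was at 0.30 in set 3, 0.012 with a term for late-numbered pigs, 0.025 without HHD_S 3 and HHD_S 8 and 0.0052 with only the 2 groups, ACSL5 at 0.040 in set 3 and DGAT2 at 0.011 with limma.

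Leaving out 1 library moved log2 fold changes across 0 as follows. In WD_S against HHD_S the range was -0.078 to 0.062 for ACSL5, -0.35 to 0.023 for DGAT2, -0.16 to 0.13 for FABP1 and -0.25 to 0.016 for GPAT3. In HHD_S against HHD it was -0.17 to 0.087 for ACSL5, -0.20 to 0.15 for DGAT2 and -0.19 to 0.10 for SLC27A4. In WD_S against HHD it was -0.18 to 0.12 for ACSL5, -0.37 to 0.0086 for DGAT2 and -0.17 to 0.11 for FABP2.

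Genes called over the whole table were few throughout. In WD_S against HHD_S there were 0, against 2 without the set term, with a late-pig term, without late-numbered pigs or with 2 surrogate variables, 4 with DESeq2, and 1 with limma or without HHD_S 3 and HHD_S 8. DESeq2 called 1 in HHD_S against HHD, 2 in WD_S against HHD and 3 over the 3 labels. The late-pig term gave 2 in both of these last, and either set alone or total counts gave 0. Leaving out 1 library gave 0 to 2 genes in WD_S against HHD_S and 0 to 1 in WD_S against HHD and over the 3 labels.

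Of the 21 pairs, 13 passed with all libraries, 0 in WD_S alone or set 4 alone, 1 in HHD alone, 6 without HHD_S 3 and HHD_S 8, and 10 to 15 leaving out 1 library. Of the 7 relations with the enterocyte score 5 passed with all libraries, 0 in WD_S or HHD alone, 3 in set 3 and 2 in set 4. There was 1 without the 2 farthest libraries or HHD_S 3 and HHD_S 8, and 3 to 5 leaving out 1 library. No share over all genes is given beside these counts. The ratio of FABP1 to FABP2 in WD_S against HHD_S changed sign to -0.23 in set 3, -0.27 without HHD_S 3 and HHD_S 8 and -0.092 without the late-numbered pigs, with a range of -0.19 to 0.29 leaving out 1 library. That of DGAT2 to DGAT1 in HHD_S against HHD did so at -0.57 in set 4 and -0.26 without the late-numbered pigs, with a range of -0.27 to 0.23. Leaving out 1 library, 0 to 2 ratio tests passed, and the FABP1 to FABP2 difference ranged from -0.86 to -0.43 in HHD_S against HHD and from -0.73 to -0.36 in WD_S against HHD. The alternatives without HHD_S 3 and HHD_S 8, the ratio tests permuted within library sets, and those of the pairs, scores and ratios without late-numbered pigs, were chosen after seeing the data.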
